A study of Mus musculus with 6 samples.

Results

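The translation initiation and elongation factors of mouse were examined in pancreatic acinar cells with and without Trip12, a HECT-type E3 ubiquitin ligase. The set was the protein-coding genes whose symbol begins with Eif1 to Eif6 or with Eef1 or Eef2, without the eIF2 kinases (Eif2ak genes), without Eif2s3x and Eif2s3y, and without pseudogenes. It held 62 of the 55414 genes in the deposited tables. The rule uses symbols and gene classes and no measured value. The controls were 3 libraries from adult mice of the genotype Pdx1Cre;Trip12+/+, and the knockouts were 3 libraries from adult Pdx1Cre;Trip12fl/fl mice. Both groups were untreated and both carried the Cre recombinase, which the Pdx1 promoter expresses in the epithelial lineages of the pancreas, so that cells of other lineages keep Trip12. Each library was counted from poly-A RNA, and the counts are given as normalised CPM (the count relative to the library size, with TMM factors). The labels call the libraries biological replicates and do not state how animals were allotted to them. P-values measure the spread between these 3 libraries a group.

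Before a ribosome starts on most mRNAs, the eIF4F complex binds the cap and eIF4A unwinds the leader. The scaffold eIF3 binds the small subunit, and eIF2 with GTP delivers the initiator tRNA. eIF2B then reloads eIF2 with GTP, a step that stress kinases block by phosphorylating the alpha subunit of eIF2. During elongation eEF1A brings aminoacyl tRNAs and eEF2 moves the ribosome along. Acinar cells make and secrete digestive enzymes at one of the highest rates of protein synthesis known in the body.

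Total gene counts were 31019500 to 34041901 per library, and 29 genes of digestive enzymes took 73.2% ± 1.09 (SD, n = 3) of them in controls and 70.0% ± 0.347 in knockouts. Trip12 was at 29.0, 22.3 and 26.4 CPM in controls and 14.4, 14.7 and 13.0 CPM in knockouts (log2 fold change -0.89, edgeR adjusted p = 0.0256). Its counts cover the whole gene, also exons outside the floxed part. All 12 acinar markers were detected, and their summed level was 479559 to 650711 CPM in controls and 402371 to 411551 CPM in knockouts, without overlap. With the replicate block 4 of the 12 passed, beside 5.98% of all genes. The groups did not overlap for 6 of the 12 on the lower side and 1 on the higher, beside 11.0% and 11.9% of all genes. Ductal markers summed to 185 to 228 CPM in controls and 171 to 261 CPM in knockouts, with 4 of 7 passing with the block. They went both ways, with 3 wholly lower in knockouts and 1 wholly higher. Islet markers summed to 348 to 454 CPM in controls and 238 to 894 CPM in knockouts. Leukocyte markers summed to 17.5 to 79.5 CPM in controls and 14.7 to 58.9 CPM in knockouts, with 3 of 8 passing with the block, and stromal and endothelial markers to 27.6 to 118 and 33.7 to 137 CPM. The fat cell marker Adipoq was at 0 in all 6 libraries. Over 100 counts of Xist, the RNA of the inactive X chromosome, were present in 2 control libraries (replicates 2 and 3) and in 0 knockout libraries. Xist class, and with it the likely sex, and genotype cannot be fully told apart, and only control replicate 1 matches the knockouts. A lower share of cells and less RNA per cell cannot be told apart in such bulk libraries.

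The factors differed little between genotypes gene by gene, and most lay slightly lower in the knockout once the libraries were scaled by TMM factors. Of the 62 genes, 59 passed the filter on low counts. In edgeR's quasi-likelihood test 1 factor, Eif3j2, passed an adjusted p of 0.05 and fell in the knockout. Across the 13115 genes tested, 0.945% passed, 0.48% lower and 0.465% higher. No factor passed on the higher side (0 in edgeR, DESeq2 and limma-voom alike), and 2 had an unadjusted p under 0.05 there, beside 8.43% of all genes. On the lower side 10 factors had an unadjusted p under 0.05, beside 8.29% of all genes. With the replicate number as a block 5.98% of all genes passed. Eif3d and Eif3j2 were the 2 factors that then passed on the lower side, beside 2.58% of all genes, and 0 passed on the higher side, beside 3.39%.

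The fitted log2 fold change was below 0 for 44 of the 59 factors (74.6%), beside 47.7% of all genes. The median was -0.17 for the factors and 0.02 for all genes. The 3 knockouts lay wholly below the 3 controls for 14 factors (23.7%), beside 11.0% of all genes, and wholly above for 3 (5.08%), beside 11.9%. The scaling moved these directions. When libraries were scaled by their totals, the median of all genes was 0.43 and that of the factors 0.26, and 35 factors changed sign. The knockouts then lay wholly below the controls for 2 factors, beside 1.98% of all genes, and wholly above for 27, beside 38.9%. In edgeR 9 factors then passed on the higher side, beside 11.1% of all genes, and Eif3j2 alone on the lower, beside 0.587%. Relative to the median of all genes the factors' median was -0.19 with TMM factors and -0.17 with library totals, and 45 and 44 of 59 lay below it. With a covariate for Xist the factors' median was 0.04 and 27 of 59 lay below 0. In that fit only control replicate 1 shares the Xist class of the knockouts. The 8 factors named below with an unadjusted p under 0.05, lower values and no overlap, apart from Eif3j2, then ran from -0.38 (Eif2s1) to -0.16 (Eif3m), at adjusted p of 0.525 to 0.805.

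**Figure D1:**
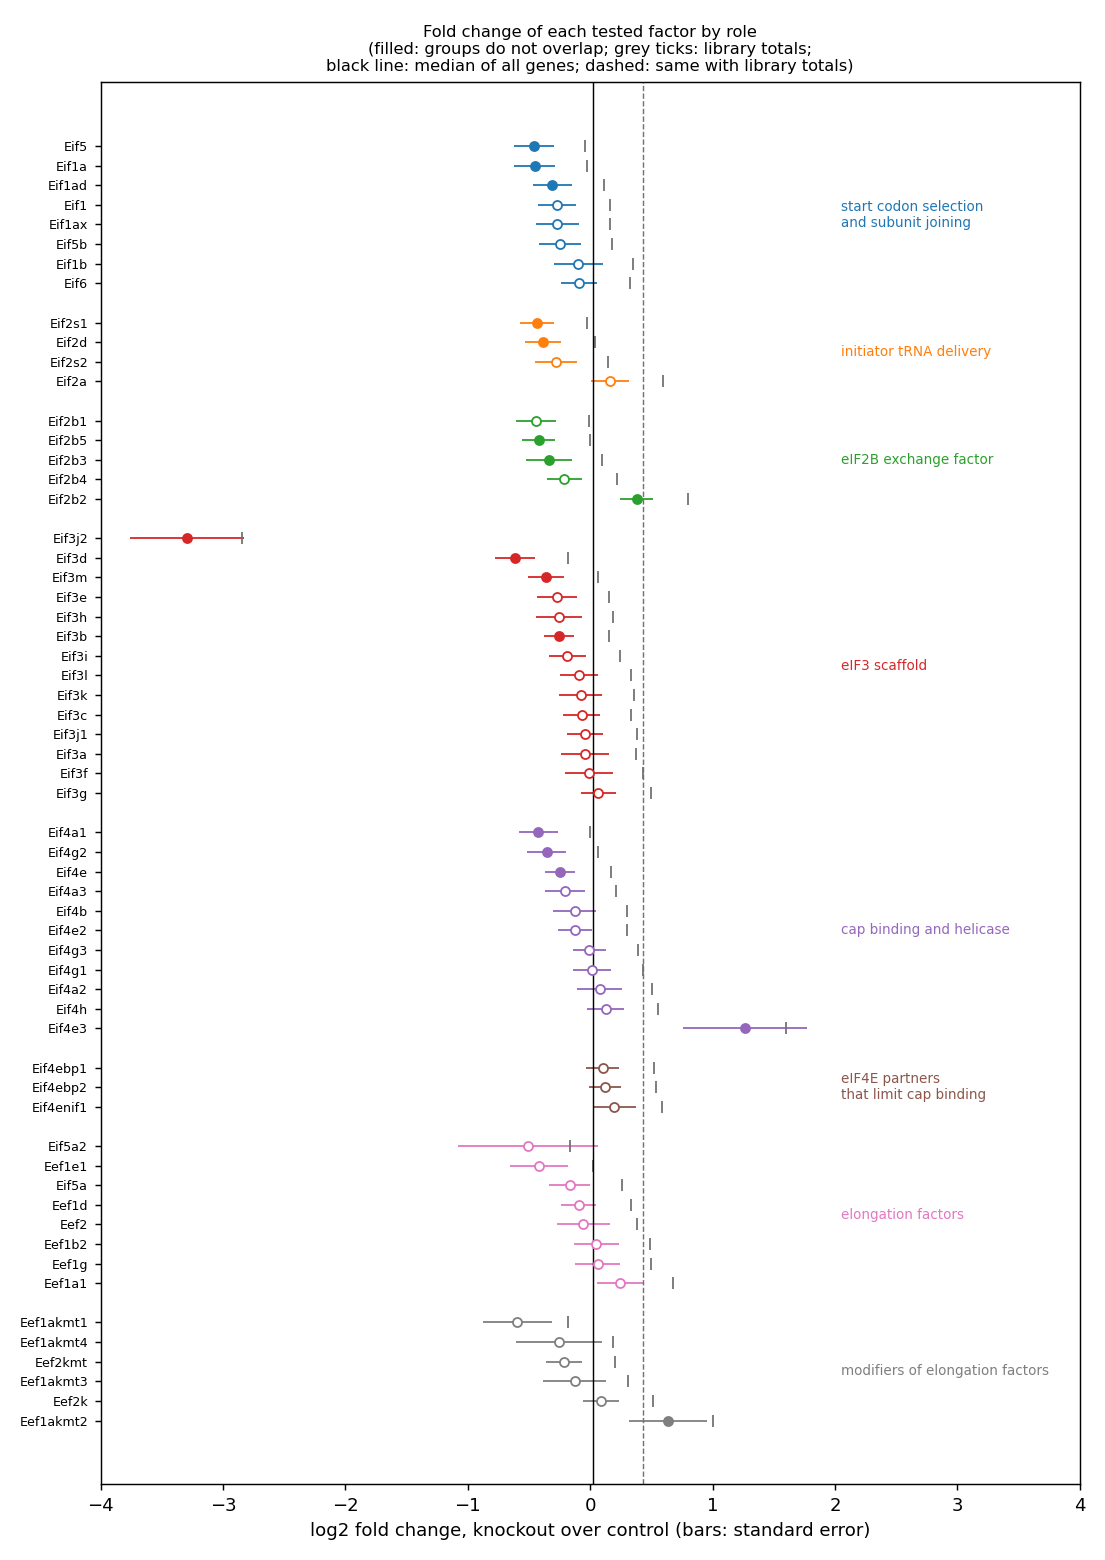
The log2 fold change of each of the 59 tested factors (horizontal axis, knockout over control, bars for the standard error) is drawn by role, with filled points where the groups do not overlap and grey ticks for library totals. Most points lie left of the black line, the median of all genes at 0.02, most grey ticks lie left of the dashed line at 0.43, and Eif3j2 stands apart at -3.30.

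The largest difference in the set was in eIF3, the multi-subunit scaffold that binds the small ribosomal subunit. Eif3j encodes its loosely bound j subunit, which sits near the mRNA entry channel, and the mouse has a pair of copies on different chromosomes, Eif3j1 (ENSMUSG00000027236) and Eif3j2 (ENSMUSG00000043424). Eif3j2 had 153, 169 and 364 counts in controls and 28, 43 and 21 in knockouts. Scaled, this was 4.82, 6.94 and 13.2 CPM against 0.750, 1.23 and 0.563 CPM. Every knockout was below every control, also with library totals, and control replicate 3 was the highest. The fitted log2 difference was -3.30 (SE 0.47, edgeR adjusted p = 0.0308). With the replicate block it was -3.21 (adjusted p = 0.00562). The call did not hold without control replicate 2 (adjusted p = 0.112) or without knockout replicate 1 (0.176), 2 (0.0638) or 3 (0.143). With the Xist covariate the log2 fold change was -2.51 (adjusted p = 0.150).

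Eif3j1 was at 18.6, 25.0 and 19.4 CPM in controls and 18.9, 20.5 and 21.8 CPM in knockouts, and the groups overlapped. Its log2 fold change was -0.04 (adjusted p = 0.924). Eif3j2 thus made up 20.5% (95% exact Clopper-Pearson interval 17.7% to 23.6%), 21.7% and 40.5% (37.3% to 43.8%) of the counts of both copies in controls. In knockouts it made up 3.81%, 5.66% (4.12% to 7.55%) and 2.51%. These intervals cover counting error only. The groups did not overlap (exact two-sided permutation p = 0.1, the smallest that 3 against 3 libraries allow). When the counts of both copies were summed into 1 row the log2 fold change was -0.47 (SE 0.16, edgeR adjusted p = 0.193). With the block this was -0.45 (adjusted p = 0.0691), and without control replicate 1 it was -0.63 and passed (adjusted p = 0.0365). In that last setting no control shares the Xist class of the knockouts, so it cannot separate genotype from likely sex. With the Xist covariate the sum was at -0.14 (adjusted p = 0.804), and with library totals at -0.03 (0.847).

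The Eif3j2 transcript of the GENCODE M21 annotation, 2379 bases long, aligned over its whole length to bases 78 to 2446 of the 5413-base Eif3j1 transcript. The copies shared 2365 of 2379 aligned positions (99.4%). They differed at 6 sites, by 4 substitutions and by 10 extra bases in Eif3j2 at 2 sites, and 1 of the 6 sites lay in the 786-base reading frame of Eif3j1. The longest stretch with no difference was 1082 bases. In the deposited layout, reads with more than 1 place in the genome stand in a row of their own, so reads from such a stretch are in neither value. Such reads made up 26.0% to 28.4% of all reads in controls and 21.6% to 24.1% in knockouts. Eif3j2 counts therefore rest on few stretches of the transcript, and Eif3j1 counts can also come from its own longer end. The values of either copy alone are uncertain for this reason.

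**Figure D2:**
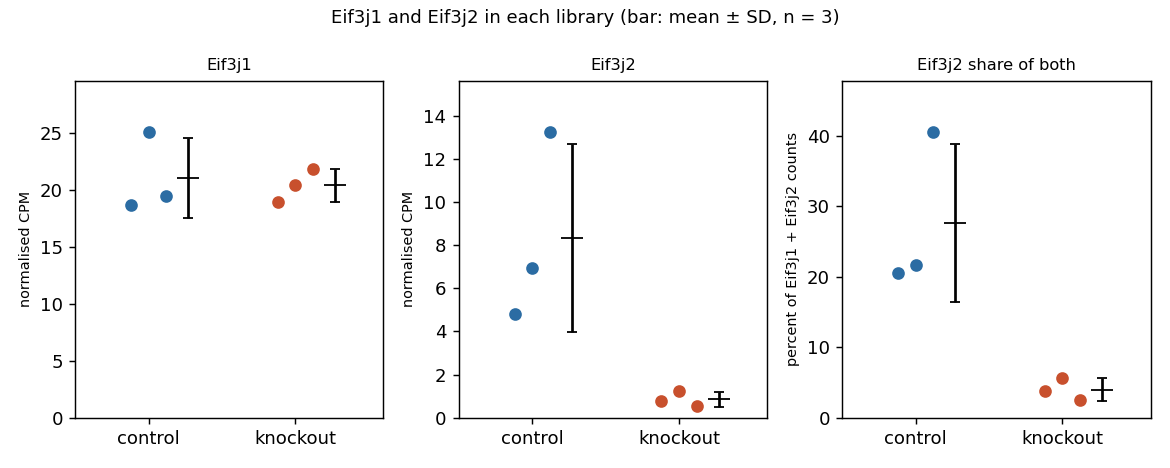
Normalised CPM of Eif3j1 (left) and Eif3j2 (middle) and the percentage of both copies' counts on Eif3j2 (right) are drawn for each library, with mean and SD beside the points. Eif3j2 lies between 0.563 and 1.23 CPM in the 3 knockouts and between 4.82 and 13.2 CPM in the 3 controls, and Eif3j1 overlaps between the groups.

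The other 12 genes of eIF3 had small differences. All 14 eIF3 genes were tested, 13 had a log2 fold change below 0, beside 47.7% of all genes, and the median was -0.14. With library totals 2 of the 14 lay below 0 and the median was 0.29. Below the median of all genes lay 13 with TMM factors and 12 with library totals. With the Xist covariate the eIF3 genes lay on both sides of 0, from -2.51 (Eif3j2) to 0.41 (Eif3f). Eif3d (ENSMUSG00000016554) encodes the subunit that can itself bind the cap of some mRNAs. It was at 10.1, 14.5 and 12.9 CPM in controls and 8.27, 8.79 and 7.40 CPM in knockouts. Every knockout lay below every control, with library totals as well. This was a log2 fold change of -0.61 (SE 0.16, adjusted p = 0.121). Eif3d passed with the block (adjusted p = 0.0398), without control replicate 1 (0.0323) and without the filter on low counts (0.0165). Without control replicate 1 no control shares the Xist class of the knockouts, so that setting cannot separate genotype from likely sex. Eif3d did not pass when another library was left out (adjusted p 0.216 to 0.345). With the Xist covariate its log2 fold change was -0.31 (adjusted p = 0.589), and with library totals -0.18 (0.350). An antisense gene model overlaps Eif3d, and the counts carry no strand.

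Eif3m, a subunit of the octamer core, was at 43.7, 50.9 and 56.3 CPM in controls and 35.2, 42.3 and 40.1 CPM in knockouts. Its groups did not overlap and its log2 fold change of -0.36 did not pass (adjusted p = 0.270). Eif3b was the other subunit whose groups did not overlap, with 47.5 ± 0.782 CPM in controls and 39.8 ± 2.27 CPM in knockouts (SD, n = 3). Per kilobase of exon, the 13 subunit genes without Eif3j2 spanned a wide range of levels. The lowest was Eif3d, at 2.51 CPM per kilobase in controls and 1.64 in knockouts, and the highest was Eif3h, at 52.6 and 44.1. The place of Eif3d depends on the length used. Its joined exons span 4968 bases and its longest coding transcript 1899 bases.

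The 8 factors of start codon selection and subunit joining all had a log2 fold change below 0, beside 47.7% of all genes. Their median was -0.27, and 0 of them passed in edgeR, DESeq2 or limma-voom. With library totals 2 of the 8 lay below 0 (Eif5 at -0.04 and Eif1a at -0.03), and 0 were wholly lower in knockouts. All 8 lay below the median of all genes under either scaling. With the Xist covariate they lay on both sides of 0, from -0.27 (Eif5) to 0.35 (Eif1b). Eif5, which triggers GTP hydrolysis on eIF2 when the start codon is found, was at 82.6, 100.4 and 99.9 CPM in controls and 58.7, 79.6 and 67.2 CPM in knockouts. The groups did not overlap, and the log2 fold change of -0.46 did not pass (adjusted p = 0.216). Eif1a, a factor that keeps the scanning ribosome in its open state, was at 13.3, 17.1 and 17.2 CPM in controls and 12.3, 12.9 and 9.51 CPM in knockouts (log2 fold change -0.45, adjusted p = 0.222). Its X-linked paralogue Eif1ax was at 20.4, 28.6 and 27.2 CPM in controls and 17.2, 23.1 and 22.9 CPM in knockouts, with overlap. Eif1a made up 38.5% ± 1.07 of the counts of that pair in controls and 35.6% ± 6.15 in knockouts (SD, n = 3, exact permutation p = 0.6). Eif1ad, which carries an eIF1A-like domain, was the third gene of the role without overlap, at 6.42 ± 0.569 and 5.18 ± 0.604 CPM.

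Of the 4 genes that deliver the initiator tRNA, 3 had a log2 fold change below 0 and 2 did not overlap between groups. Eif2s1 encodes the alpha subunit of eIF2, the target of the stress kinases. It was at 15.8, 17.2 and 16.1 CPM in controls and 10.5, 13.8 and 11.98 CPM in knockouts. Every knockout was lower than every control, with a log2 fold change of -0.44 (adjusted p = 0.169, and 0.0766 with the block). Per kilobase Eif2s1 was lower than Eif2s2, the beta subunit, at 3.30 and 2.44 against 11.1 and 9.10 CPM per kilobase in controls and knockouts. Eif2s2 was at 63.7, 81.7 and 78.9 CPM in controls and 50.2, 65.9 and 68.3 CPM in knockouts, with overlap. Eif2d, a factor that can place tRNAs in the P site without GTP, was at 10.7, 13.5 and 11.3 CPM in controls and 9.88, 9.10 and 8.12 CPM in knockouts (log2 fold change -0.39, adjusted p = 0.234). It overlaps Rassf5 on the other strand. With library totals Eif2d had a log2 fold change of 0.04 and Eif2s1 of -0.02, and the groups of both overlapped.

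The 5 subunits of eIF2B, which exchanges GDP for GTP on eIF2, did not share a direction, with 4 below 0 and 1 above. Eif2b5, the catalytic epsilon subunit, was at 19.3, 22.4 and 24.8 CPM in controls and 15.3, 17.6 and 16.8 CPM in knockouts, without overlap. Its log2 fold change was -0.42 (adjusted p = 0.182), and 0.0022 with library totals. Eif2b2, the beta subunit of the regulatory part, went the other way, with 16.02, 18.4 and 17.7 CPM in controls and 21.9, 20.4 and 25.5 CPM in knockouts. Its groups did not overlap either, with a log2 fold change of 0.38 (adjusted p = 0.214), and it passed with library totals (log2 fold change 0.80, adjusted p = 0.0240). Eif2b2 was also the subunit with the highest level per kilobase, at 9.21 in controls and 11.98 in knockouts. Eif2b3, the gamma subunit, was the lowest, at 0.692 and 0.547. Its groups did not overlap (4.51 ± 0.836 and 3.57 ± 0.157 CPM). Eif2b1, the alpha subunit, had an unadjusted p under 0.05 as well, with overlap (20.3 ± 3.54 and 14.9 ± 1.85 CPM, adjusted p = 0.237).

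Among the 12 genes of cap binding and mRNA unwinding, 11 were tested, 7 had a log2 fold change below 0, and the median was -0.12. Eif4a1 and Eif4a2 encode the closely related RNA helicases of eIF4F. Eif4a1 was at 80.3, 100.7 and 91.6 CPM in controls and 60.2, 76.6 and 66.4 CPM in knockouts, without overlap (log2 fold change -0.42, adjusted p = 0.232). With library totals its groups overlapped, at a log2 fold change of -0.0014. Eif4a2 was at 147.7, 167.5 and 207.3 CPM in controls and 156.8, 190.6 and 204.0 CPM in knockouts, with overlap. Eif4a1 thus made up 35.2%, 37.5% and 30.6% of the counts of both helicases in controls and 27.7%, 28.7% and 24.5% in knockouts. The groups did not overlap (exact two-sided permutation p = 0.1, the smallest possible), and such a share within a library does not depend on the scaling.

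The cap-binding proteins were at low levels. Eif4e, the subunit of eIF4F that holds the cap, was at 13.3, 15.4 and 13.3 CPM in controls and 11.8, 11.95 and 11.7 CPM in knockouts, without overlap. Eif4e3, a homologue that binds the cap in another way, was at 1.07, 0.369 and 0.363 CPM in controls and 1.66, 1.14 and 1.58 CPM in knockouts. Its groups did not overlap, with a log2 fold change of 1.26 and an adjusted p of 0.262 (0.0774 with the block). Within each group Eif4e3 was highest where the leukocyte sum was high. Those sums were 79.5, 22.1 and 17.5 CPM in controls and 58.9, 14.7 and 55.6 CPM in knockouts, and their part in the result was not tested. The log2 fold change of Eif4e3 was 1.96 without control replicate 1 (adjusted p = 0.0587) and 0.45 with the Xist covariate (0.810). Without control replicate 1 no control shares the Xist class of the knockouts. A protein-coding model on the same strand, Gm20696, overlaps Eif4e3. Eif4e3 made up 7.42%, 2.35% and 2.65% of the counts of Eif4e3 and Eif4e in controls and 12.4%, 8.71% and 11.9% in knockouts (exact permutation p = 0.1). Eif4e2, which takes the cap on repressed mRNAs, made up 48.8% ± 2.32 of the counts of Eif4e2 and Eif4e in controls and 51.0% ± 1.06 in knockouts (SD, n = 3, exact permutation p = 0.2). It was at 11.5, 15.1 and 13.7 CPM in controls and 12.6, 12.7 and 11.6 CPM in knockouts. Eif4g2, a relative of the eIF4G scaffold that lacks the eIF4E site, was at 221 ± 20.6 and 172 ± 18.3 CPM, without overlap (adjusted p = 0.302). Eif4e1b, an eIF4E homologue of oocytes, had 0 counts in all 6 libraries, which allows up to 3 counts or 0.0967 CPM of any library total.

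The inhibitors that sequester eIF4E showed no such tilt. Of 4 genes 3 were tested, 0 had a log2 fold change below 0, the median was 0.12, and 0 passed in edgeR, DESeq2 or limma-voom, with 0 at an unadjusted p under 0.05. With library totals the median was 0.54, and Eif4ebp1 (adjusted p = 0.0387) and Eif4ebp2 (0.0472) passed as higher. Eif4ebp1 was at 41.6, 49.8 and 42.1 CPM in controls and 44.7, 49.4 and 49.2 CPM in knockouts. Eif4ebp2 was at 45.4, 49.0 and 45.7 CPM in controls and 48.4, 47.5 and 56.4 CPM in knockouts. Both overlapped between groups, and Eif4ebp1 made up 48.7% ± 1.43 and 48.5% ± 2.21 of the counts of the pair (SD, n = 3, exact permutation p = 1). Eif4ebp3 had 3 to 9 counts per library and was not tested.

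**Figure D3:**
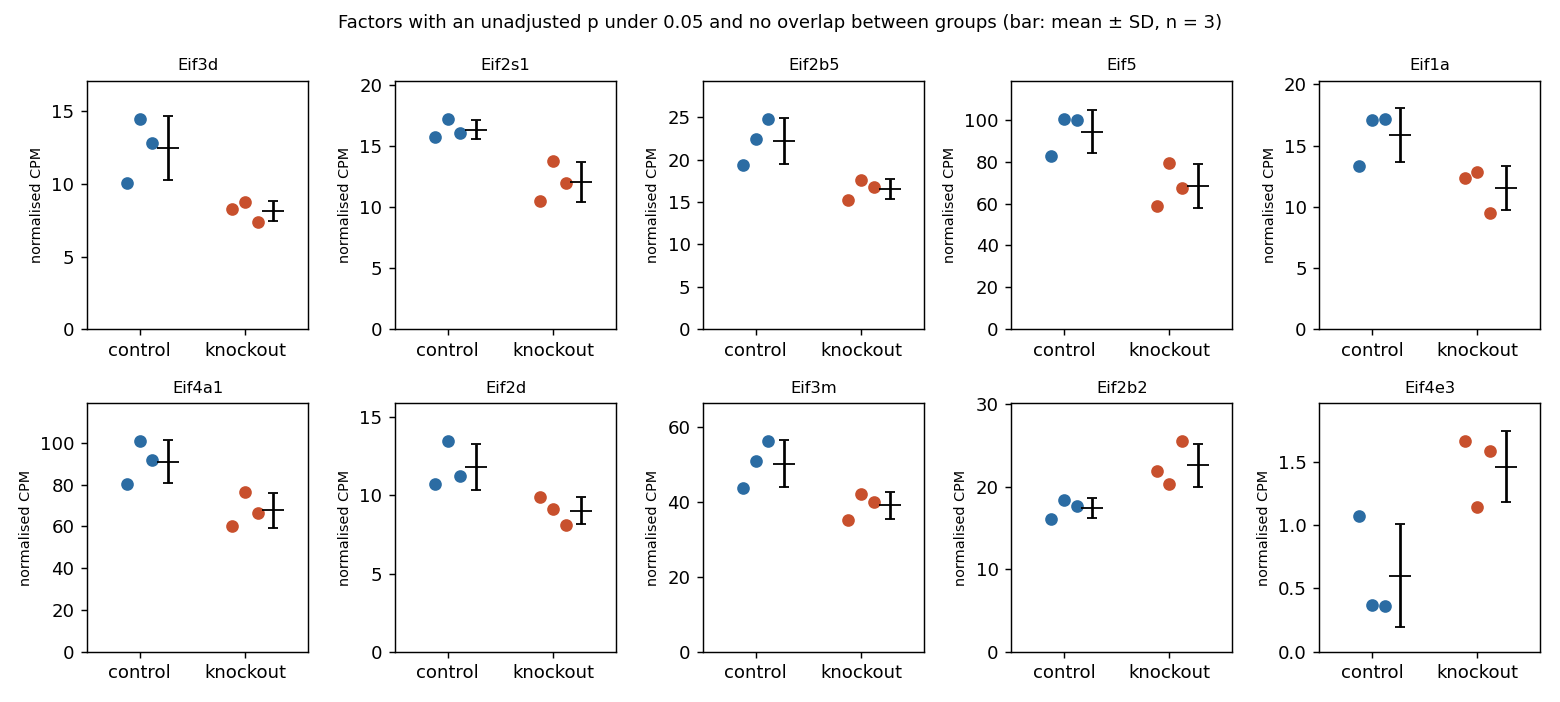
Normalised CPM in each library (vertical axes from 0) are drawn for the 10 factors other than Eif3j2 with an unadjusted p under 0.05 and no overlap between groups, with mean and SD beside the points. In 8 of the 10 all knockouts lie below all controls, and in Eif2b2 and Eif4e3 they lie above. None of the 10 passes the adjusted test of the fit without a block, and Eif3d passes with it.

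The elongation factors together held most counts of the set, led by Eef1a1 and Eef2, and no single one separated the groups with TMM factors. Of 9 genes 8 were tested, 5 had a log2 fold change below 0, the median was -0.08, and the groups of 0 genes were free of overlap. None passed in edgeR, DESeq2 or limma-voom, and 0 had an unadjusted p under 0.05. Eef1a1 was at 1778, 2055 and 2596 CPM in controls and 2290, 2530 and 2804 CPM in knockouts, with overlap. Its log2 fold change was 0.25 (SE 0.19, adjusted p = 0.578), and scaled by library totals it was 0.68 and passed (adjusted p = 0.0286). Eef2 was at 986, 1135 and 1651 CPM in controls and 1164, 1152 and 1310 CPM in knockouts. Its log2 fold change was -0.06 (adjusted p = 0.931). Control replicate 3 was the highest control for both genes. With library totals the knockouts lay wholly above the controls for 5 of the 8 tested elongation factors, beside 38.9% of all genes.

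Per kilobase of exon the order of the levels in all libraries together was Eef1a1, Eef2, Eef1b2, Eef1g, Eif5a and Eif3h. Eef1a1 stood at 860 ± 167 CPM per kilobase in controls and 1019 ± 103 in knockouts, and Eef2 at 378 ± 105 and 364 ± 26.3 (SD, n = 3). Eef1b2 and Eef1g, subunits of the exchange factor that reloads eEF1A, followed at 83.0 ± 18.05 and 85.8 ± 1.36, and at 71.0 ± 14.9 and 74.1 ± 5.67. Eif5a, the hypusine-bearing factor that helps ribosomes past stalling residues, was at 65.4 ± 11.6 and 58.2 ± 4.43. Eif3h closed the 6 at 52.6 ± 12.8 and 44.1 ± 2.73. The first and the second place were separate in every library. In controls Eef1b2 and Eef1g, and Eef1g and Eif5a, differed by less than their SDs, and Eif5a and Eif3h by slightly more. The lengths are those of all exons of a gene joined, so that these levels are approximate.

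Eef1b2 itself was at 164.1, 210.7 and 255.5 CPM in controls and 218.0, 220.2 and 213.4 CPM in knockouts, and Eef1g at 147.2, 181.8 and 224.6 and at 182.0, 186.2 and 209.4 CPM. Eif5a was at 138.3, 187.4 and 140.8 CPM in controls and 129.9, 150.2 and 135.1 CPM in knockouts, and Eif3h at 63.8, 85.5 and 105.0 and at 67.8, 76.0 and 69.2 CPM. All 4 genes overlapped between groups. In each family of elongation factors 1 paralogue carried nearly all counts. Eef1a2, the eEF1A of muscle and neurons, had 8, 0 and 8 counts in controls and 5, 6 and 5 in knockouts, which was at most 0.0142% of the counts of Eef1a1 and Eef1a2. Eif5a2 was at 1.04, 0.493 and 0.291 CPM in controls and 0.402, 0.456 and 0.429 CPM in knockouts, 0.404% ± 0.296 and 0.309% ± 0.00683 of the counts of its pair (SD, n = 3, exact permutation p = 1).

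**Figure D4:**
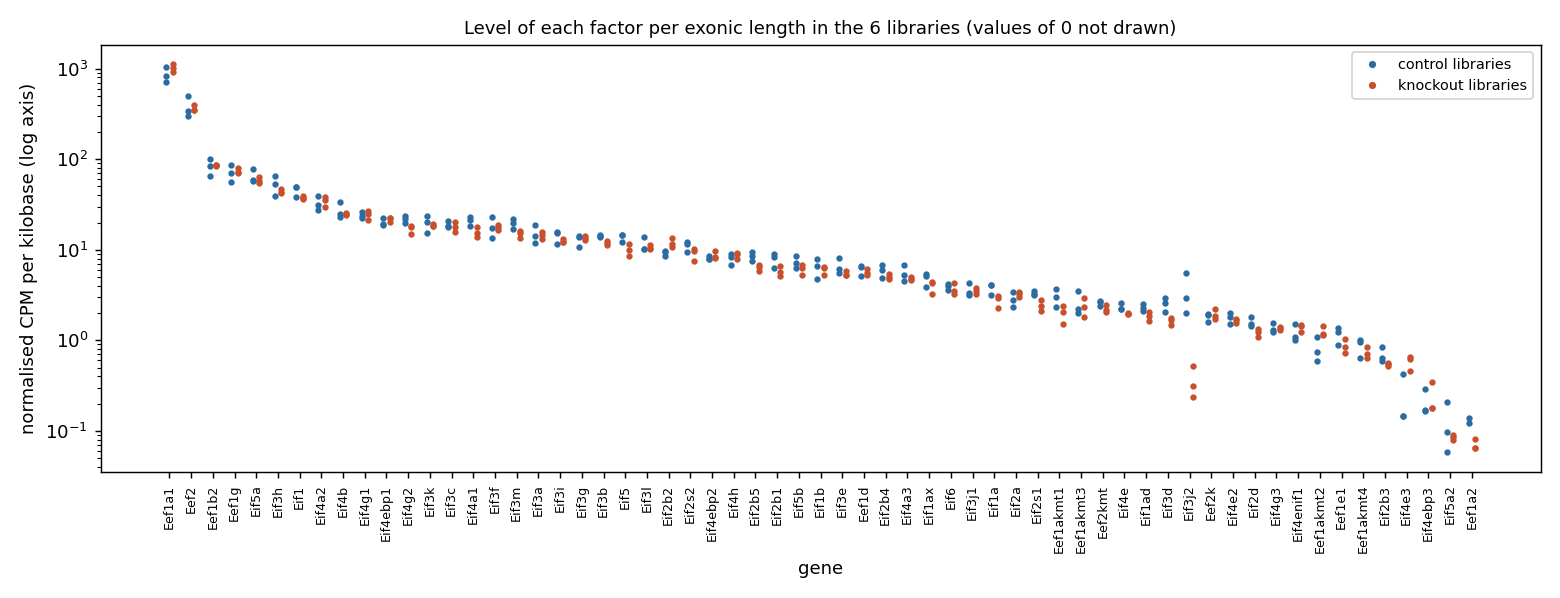
The level of each factor in normalised CPM per kilobase of exon (log axis) is drawn for the 3 control and 3 knockout libraries, in descending order. Eef1a1 and Eef2 stand above the others, at means of 860 and 378 in controls, and the points of both groups lie close together for most genes apart from Eif3j2.

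The 6 enzymes that modify elongation factors, the eEF1A lysine methyltransferases, the eEF2 methyltransferase and the eEF2 kinase Eef2k, had a median log2 fold change of -0.17, and 4 lay below 0. None passed in edgeR, DESeq2 or limma-voom, and 0 had an unadjusted p under 0.05. Eef1akmt2, at 1.43 ± 0.445 and 2.22 ± 0.282 CPM, was the one without overlap between groups (adjusted p = 0.367). It overlaps Fgfr2 on the same strand. Eef2k was at 13.5 ± 1.54 and 14.3 ± 1.77 CPM, and passed as higher with library totals (adjusted p = 0.0448).

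Summed over all 62 genes, the factors took a larger part of the knockout libraries. They held 0.531%, 0.476% and 0.598% of all gene counts in controls and 0.701%, 0.711% and 0.790% in knockouts. The groups did not overlap (difference 0.199 percentage points, exact two-sided permutation p = 0.1, the smallest possible). The enzymes' share was lower in knockouts, and outside the 29 enzyme genes the factors held 2.00% ± 0.196 and 2.45% ± 0.177 (SD, n = 3, exact permutation p = 0.1). Elongation factors made up most of that difference, with 1.28% ± 0.172 and 1.67% ± 0.139, without overlap (exact permutation p = 0.1). Initiation factors and their partners held 0.708% ± 0.0289 and 0.762% ± 0.0400, with overlap (exact permutation p = 0.2).

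Within the set the balance between the roles differed, and these shares do not depend on how libraries are scaled to each other. Elongation factors held 62.2%, 63.0% and 66.5% of the counts of the set in controls and 68.5%, 67.4% and 69.1% in knockouts. Eef1a1 alone held 34.02%, 33.9% and 35.1% in controls and 39.0%, 39.8% and 41.2% in knockouts. The eIF3 genes held 11.5%, 11.0% and 10.8% in controls and 9.97%, 9.89% and 9.48% in knockouts. Start codon selection and subunit joining went from 5.28% ± 0.446 to 4.14% ± 0.228, cap binding and helicases from 14.3% ± 0.977 to 12.8% ± 0.376, and initiator tRNA delivery from 1.95% ± 0.213 to 1.61% ± 0.0971 (SD, n = 3). In these 6 shares the groups did not overlap, each with an exact permutation p of 0.1, the smallest possible and unadjusted over the 8 roles. For initiator tRNA delivery the lowest control (1.719%) and the highest knockout (1.708%) differed by less than counting error. The same held for cap binding and helicases (13.26% and 13.24%), so the lack of overlap in these shares is not secure. The groups overlapped for eIF2B (1.29% ± 0.153 and 1.12% ± 0.0399, exact permutation p = 0.3), the eIF4E partners (1.63% ± 0.304 and 1.70% ± 0.0481, p = 0.9) and the modifiers (0.541% ± 0.0894 and 0.505% ± 0.0576, p = 0.8). Counting error was at most 0.247 percentage points either way in any such share of a library. Since Eef1a1 holds 33.9% or more of the counts, a higher share of it lowers the other shares.

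**Figure D5:**
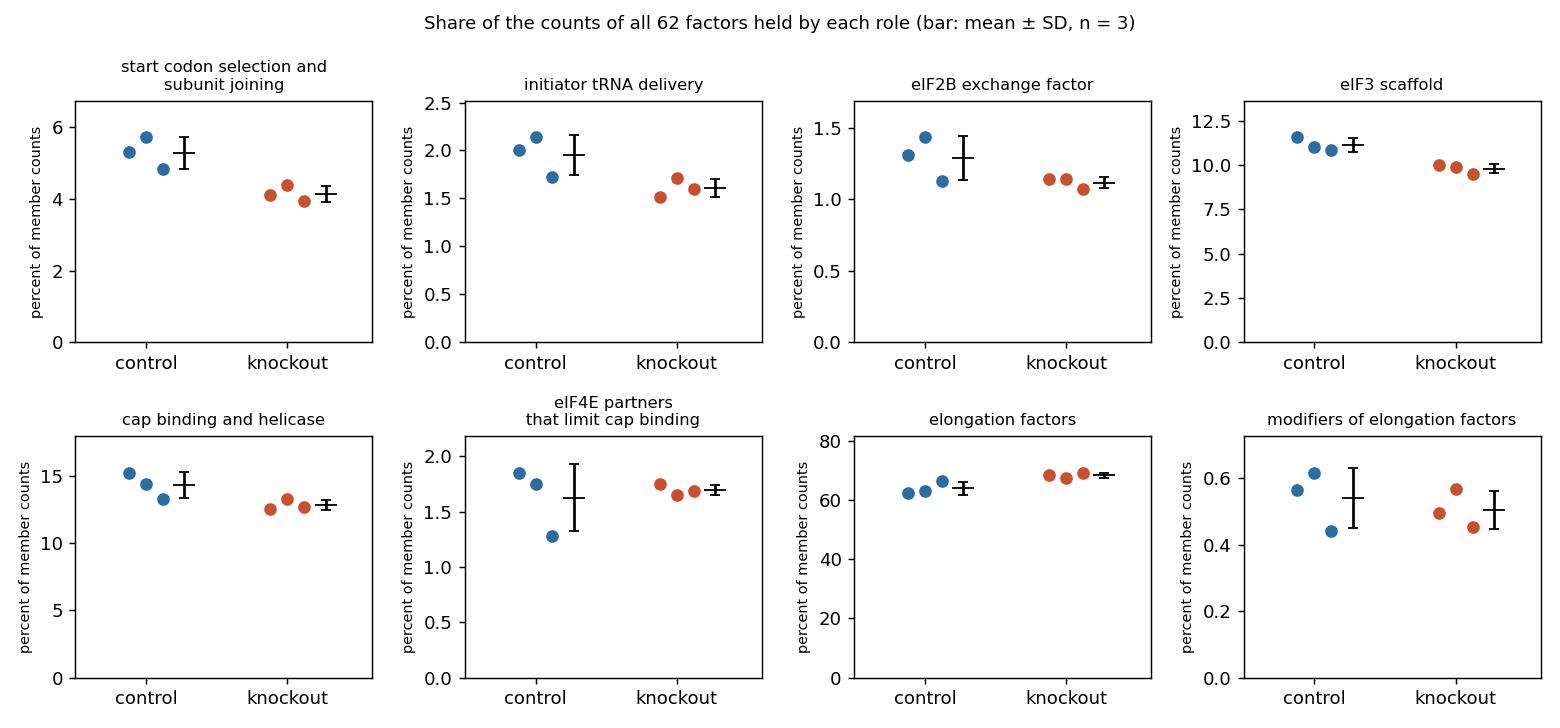
The percentage of the counts of all 62 factors held by each of 8 roles is drawn per library (vertical axes from 0), with mean and SD beside the points. The knockouts lie above the controls for elongation factors (67.4% to 69.1% against 62.2% to 66.5%) and below them for start codon selection and eIF3. They also lie below for initiator tRNA delivery and for cap binding and helicases, there by less than counting error at the closest libraries.

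Promoters of 46 of the 62 factors were found by symbol in the RefSeq table for build GRCm38.p6, in 60 windows of the 250 bases before a start. The windows were searched on both strands for 6 motifs. The E-box CACGTG lay in 23.3% of the factors' windows and in 6.02% of all 32851 windows, and 12 of 46 factors had it. The ETS motif CCGGAAGT lay in 8.33% and 2.88%, and the GC box GGGGCGGGG in 13.3% and 10.4%. CCAAT lay in 23.3% and 33.8%, TATAAA in 6.67% and 12.4%, and TGATGNAA, a form of the amino acid response element, in 1.67% and 3.45%. None of the 6 motifs contains another. With TMM factors the knockout libraries all lay below the controls for Eif3d, Eif2s1 and Eif4a1, factors of different steps. With library totals this held for Eif3d, and the groups overlapped for Eif2s1 and Eif4a1. The following windows belong to these genes, with the motifs found in capitals. They are printed 5′ to 3′ on the strand of the gene. The window of Eif3d was chr15:77970825-77971074 on the minus strand, with the ETS motif and the GC box, each as its reverse complement. That of Eif2s1 was chr12:78861822-78862071 on the plus strand, with TATAAA. That of Eif4a1 was chr11:69672424-69672673 on the minus strand, with CACGTG and CCAAT. A match is a string of letters and not a measured binding site.
Eif3d: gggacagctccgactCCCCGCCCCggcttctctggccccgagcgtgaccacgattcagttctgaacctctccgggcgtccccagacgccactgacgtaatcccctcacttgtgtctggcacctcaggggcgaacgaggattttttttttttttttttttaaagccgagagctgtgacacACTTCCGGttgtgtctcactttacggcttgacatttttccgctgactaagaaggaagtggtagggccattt
Eif2s1: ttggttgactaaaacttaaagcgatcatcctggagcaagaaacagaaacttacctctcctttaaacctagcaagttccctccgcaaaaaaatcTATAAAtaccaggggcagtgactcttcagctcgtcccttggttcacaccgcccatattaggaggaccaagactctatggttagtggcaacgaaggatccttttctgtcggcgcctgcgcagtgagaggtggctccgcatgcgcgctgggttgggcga
Eif4a1: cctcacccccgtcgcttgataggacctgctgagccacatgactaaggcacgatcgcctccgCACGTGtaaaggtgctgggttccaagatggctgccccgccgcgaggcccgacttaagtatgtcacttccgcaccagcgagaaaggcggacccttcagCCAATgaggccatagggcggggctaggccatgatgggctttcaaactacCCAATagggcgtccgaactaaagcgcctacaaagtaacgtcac

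The other genes of the pathway gave few calls. Of 31 further translation factors, such as release factors, poly-A binding proteins and the enzymes that make hypusine and diphthamide, 30 were tested and 0 passed in edgeR and limma-voom. DESeq2 called 1 lower, Ddx3x, where it called 4.52% of all genes in either direction. Whether the Xist class of the libraries bears on that call was not tested. At an unadjusted p under 0.05 in edgeR 1 was higher and 4 were lower, beside 8.43% and 8.29% of all genes. The median log2 fold change of these further factors was -0.08. Of the 25 genes of the mTORC1 pathway, which frees eIF4E by phosphorylating its partners, 0 passed in edgeR, DESeq2 or limma-voom, 2 were higher at an unadjusted p under 0.05, and the median was 0.01. The 9 mitochondrial translation factors gave 0 calls in the 3 tools, 1 lower at an unadjusted p under 0.05, and a median of 0.01. The 24 genes of the integrated stress response, which includes the eIF2 kinases left out of the set, had a median of 0.12. In edgeR 1 passed as higher and 0 as lower, beside 0.465% and 0.48% of all genes. The one that rose was Atf5, a transcription factor translated preferentially when eIF2 is phosphorylated. It was at 39.7, 51.3 and 26.4 CPM in controls and 103.6, 103.1 and 110.9 CPM in knockouts, with a log2 fold change of 1.43 (edgeR adjusted p = 0.0266). Its values with the Xist covariate and without single libraries are not given here.

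The cytosolic ribosomal proteins, whose mRNAs share the terminal oligopyrimidine tract with several factors, lay on the other side of the median of all genes. Of 82 genes 78 were tested, 21 had a log2 fold change below 0, and the median was 0.17. The groups did not overlap for 15 of the 78 (19.2%) on the higher side and 3 (3.85%) on the lower, beside 11.9% and 11.0% of all genes. With library totals these counts were 68 and 0, beside 38.9% and 1.98%. In edgeR 1 passed, Rpl35a (log2 fold change 0.89, adjusted p = 0.0466), beside 0.465% of all genes on the higher side. With the block Rpl26 (adjusted p = 0.0175) and Rpl29 (0.0123) passed as well, which made 3 of 78, beside 3.39% of all genes. DESeq2 called 4 higher and 1 lower, and limma-voom called 1 higher. In either direction these tools called 4.52% and 0.884% of all genes. The 9 factors whose mRNAs carry such a tract, among them Eef1a1, Eef2 and Eif3h, had a median of -0.06, with 6 below 0 and 0 called in any of the 3 tools. With library totals 0 of the 9 lay below 0.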

How the data were processed

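RNA was measured in 6 libraries of mouse acinar cells. The authors deposited raw counts per Ensembl gene, and the submitters' processing notes name STAR 2.7.10a and the builds GRCm39 and mm39; the annotation is not given in the sources used here. Unstranded counts were used, as the forward strand held 50.1% to 50.3% of stranded counts. Rows outside genes (unmapped, several places, no gene, ambiguous), 43.5% to 45.7% of reads in controls and 36.9% to 41.1% in knockouts, were left out. Reads outside genes were 0.893% to 1.32% and 1.90% to 2.18%. GENCODE M21 (GRCm38) gave symbols to 52133 identifiers (94.1%), and was used for names, lengths and neighbours only. Genes overlapping on either strand share ambiguous reads, which were counted for neither.

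The main test was edgeR 4.0.16 (quasi-likelihood, TMM factors, default filter on low counts, Benjamini-Hochberg over 13115 genes, threshold 0.05) in R 4.3.3, with no block. DESeq2 1.42.0, limma-voom (limma 3.58.1), other scalings and filters, an Xist covariate, forward-strand counts and leaving out each library were alternatives. TMM factors were 0.785 to 1.02 in controls and 1.12 to 1.19 in knockouts. On simulated counts with 13115 genes for this comparison, the test called 86.0% of genes raised 4 times, 40.0% of those raised 2 times, 64.6% of those lowered 4 times, 12.5% of those lowered 2 times and 1 of 12609 unchanged genes. The labels number the replicates and do not state that equal numbers are paired. Deviations from the group means correlated at 0.63, 0.45 and 0.28 between same-numbered libraries and at -0.50 to 0.21 otherwise. The numbers were therefore used as a block in an alternative fit. That choice was read from these same data, and what the numbers stand for is not known. Deviations from a mean of 3 sum to 0, so these correlations are not independent. The blocked value stands beside a result where it changes the call. No 2 libraries were duplicates. Transcript copies were aligned with blastn 2.17.0. Single values were compared by exact two-sided permutation tests.

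The members and lists were chosen with earlier results of these data known. Values in each library are given for factors called in either fit, for those with an unadjusted p under 0.05 and no overlap, for the 6 with the highest counts per kilobase, for close paralogues and for the extremes of each complex; others without overlap are given as means. The tumour cell lines in the series title were not analysed here.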

Additional observations from a re-analysis of the deposited data

How the results depend on the processing

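The Eif3j2 difference kept its direction under every alternative tried, from -3.66 to -2.79 when single libraries were left out. It missed the threshold with limma-voom (-3.22, adjusted p = 0.0869), with the Xist covariate (-2.51, adjusted p = 0.150) and with forward-strand counts (-3.25, adjusted p = 0.0667), and the cause was not tested. The sum of both Eif3j copies ranged from -0.63 to -0.38 without single libraries. The number of factors called lower was 0 with limma-voom, the Xist covariate and forward-strand counts, 2 with no filter on low counts and 2 with the replicate block, and 0 to 2 without single libraries. The replicate block changed the call of no other factor and gave 784 genes in all, where the main test gave 124. The number of factors called higher was 9 with library totals (Eef1a1, Eef1b2, Eef2k, Eif2a, Eif2b2, Eif3g, Eif4ebp1, Eif4ebp2 and Eif4h), where 11.1% of all genes were called higher, and 0 to 0 without single libraries. The factors' median was 0.26 with library totals, where the median of all genes was 0.43. It was 0.036 with the Xist covariate, and -0.27 to -0.11 without single libraries. Signs also changed for Eif3j1 (0.38 with library totals, 0.13 with the Xist covariate, 0.020 with forward-strand counts, -0.15 to 0.10 without single libraries), for Eef2 (0.38 with library totals, 0.29 with the Xist covariate, -0.23 to 0.19 without single libraries) and, with library totals, for Eif2b5 (0.0022), Eif2d (0.039) and Eif3m (0.064). The difference in the share of all gene counts stayed between 0.169 and 0.230 percentage points without single libraries. Over all genes DESeq2 called 593, no filter 850, library totals 1528, at least 10 counts in every library 210, the Xist covariate 21, and leaving out single libraries 20 to 461.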

Other observations

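Few counts fell on pseudogene copies of the factors. Reads with more than 1 place in the genome are in neither value. These counts therefore cannot show how much the copies affect the level of a factor. By alignment, 27 of the 62 factors had at least 1 pseudogene copy of 90% identity or more over at least 200 bases. Eef1a1 had 18 of them, covering 77.9% of its transcript, and their counts summed to 1.04% of its own. For Eef1g this was 3.43%, the highest of the set, and most of it in every library came from Gm4366, a processed pseudogene 99.6% identical to Eef1g over 1342 bases and singled out here after its values were seen. Gm4366 had 420, 414 and 51 counts in controls and 84, 56 and 56 in knockouts. Control replicates 1 and 2 were high and control replicate 3 lay near the knockouts (edgeR adjusted p = 0.237).

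Differences within the numbered pairs of libraries were uneven. The median log2 ratio of the factors, knockout over control, was -0.04 in pair 1, -0.19 in pair 2 and -0.26 in pair 3.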
